A study of Mus musculus with 10 samples.

Results

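The genes described here encode the subunits of AMP-activated protein kinase (AMPK) and the proteins that bind its upstream kinase LKB1, measured in lung squamous cell carcinoma (SCC) and wild-type (WT) lung of mice. The 10 members were a fixed list: Prkaa1, Prkaa2, Prkab1, Prkab2, Prkag1, Prkag2, Prkag3, Strada, Stradb and Cab39. They are 10 of the 19096 genes that could be paired with a probe of the array, and 16 of its 41174 probes report them. RNA from 5 WT lungs and 5 SCC tumours was hybridised to 10 single-colour microarrays. The WT mice carried floxed Lkb1 alleles without Cre (Lkb1f/f) and gave whole lung. The SCC samples were lung tumours of CCSPiCreLkb1f/f mice, in which Cre under the CCSP promoter deletes Lkb1 in airway epithelium. All mice were of the strain labelled B6.129 (a mixed background, per the methods), 13 months old and without special treatment. Lkb1 itself was not analysed here. Tumour and whole lung differ in their cells as well as in genotype, so fewer cells of a type and less RNA per cell cannot be told apart in these values.

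AMPK is a heterotrimer that senses the energy state of the cell. Its catalytic alpha subunit (Prkaa genes) is phosphorylated by LKB1, its beta subunit (Prkab genes) is the scaffold that holds the complex and binds glycogen, and its gamma subunit (Prkag genes) binds AMP, ADP and ATP. LKB1 works in a complex with the pseudokinase STRAD (Strada and Stradb) and the adaptor MO25 (Cab39 and its paralogue Cab39l). The Prkaa2, Prkab2 and Prkag3 products are best known from muscle, whereas Prkaa1, Prkab1 and Prkag1 are broadly expressed.

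Values are log2 of the quantile-normalized spot intensity, and each gene is read through its probe with the highest mean signal. The other probes are given for all members, and for other genes only where named. Since probes differ in how strongly they bind, levels are compared between arrays and not between genes. A gene passed when the adjusted p of the limma test was below 0.05, and was called when the difference was at least 2-fold besides. Squamous markers identified the tumours, with 7 of 7 tested genes of the list (Trp63, Krt5 and Krt14 among them) higher in SCC, at a mean level of 9.51 to 13.21 against 3.88 to 4.72 in WT. A pair of tumour arrays stood apart. SCC replicate 2 had the lowest squamous level, 9.51 against 12.85 to 13.21 in the other tumours. On SCC replicate 5, 90.2% of probes were well above background, against 71.0% to 74.3% on the other 9 arrays.

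Of the 10 members, 6 passed, which is to be read against 53.9% of the 15586 genes tested. Prkab1 rose in SCC, Prkaa2, Prkab2, Prkag1 and Prkag2 fell, and Cab39 passed as higher by 1 of its 3 probes. That Cab39 probe was the brightest over all 10 arrays through its tumour values, and by the probe brightest in WT the count of members passing would be 5. The called members were Prkaa2, which was lower, and Prkab1, which was higher, beside 24.9% of all genes called. The groups did not overlap for 4 members (Prkaa2, Prkab1, Prkab2 and Prkag2), as for 41.4% of all genes. The median difference of the members was -0.25, against -0.04 over all genes tested. The difference was under 2-fold in 8 of the 10 members. All 16 probes were tested and 15 were well above background on all 10 arrays. The exception was the probe for Prkag3.

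**Figure D1:**
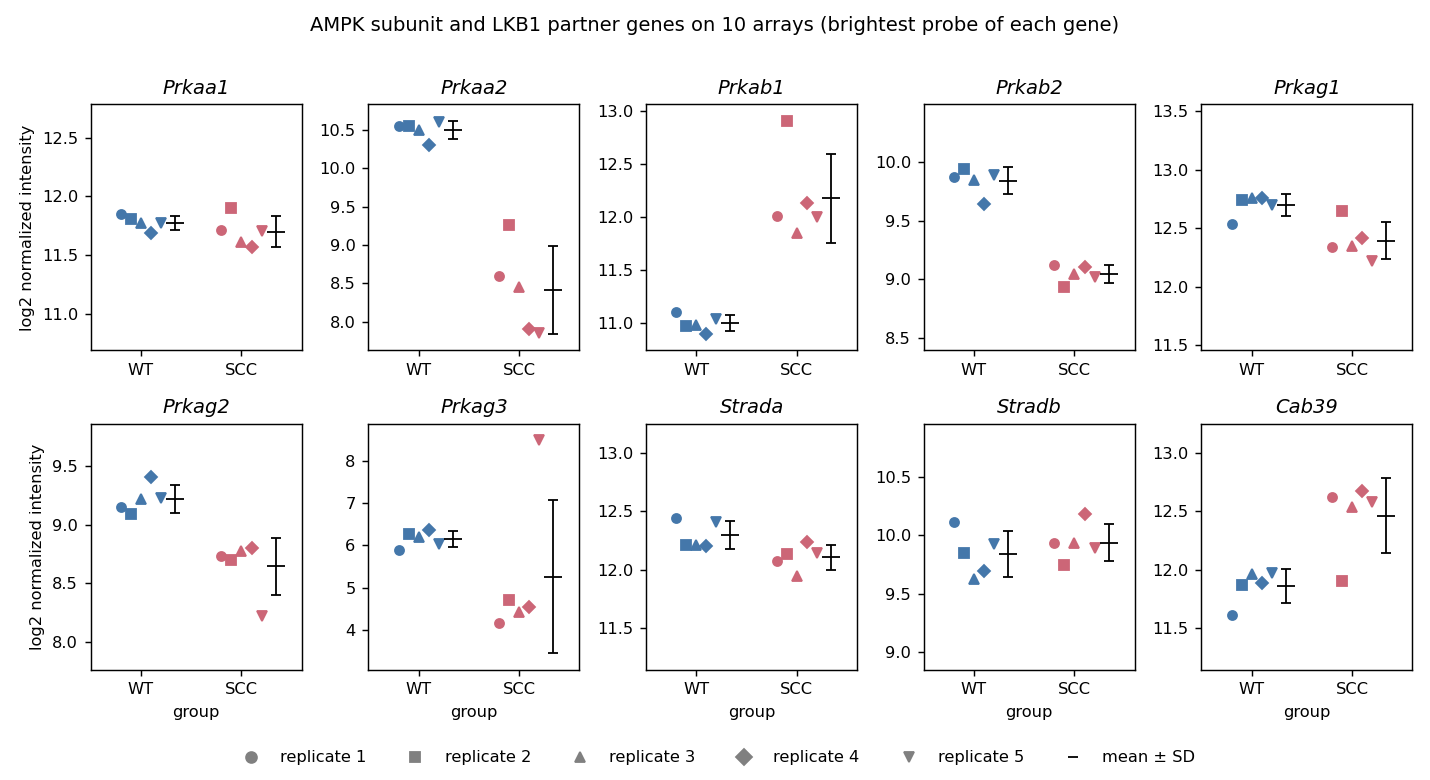
The log2 normalized intensity of each of the 10 members is plotted for the 5 WT and 5 SCC arrays by the brightest probe, with a marker for each replicate and the group mean with its SD. Each panel has its own vertical axis of at least the same span. The groups are apart for Prkaa2, Prkab1, Prkab2 and Prkag2, and SCC replicate 5 stands alone for Prkag3, as does SCC replicate 2 for Cab39.

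Both called members encode a catalytic or a scaffold subunit, and each has a paralogue that was measured too. Their upstream sequences are shown because the members of each pair are set against each other below. Each is the 250 bases before the RefSeq start on GRCm38.p6, written 5′ to 3′ on the strand of the gene. Capitals mark every match to the GC box GGGCGG, searched on both strands, so that a match on the opposite strand reads as CCGCCC and adjoining matches may overlap. The windows lie at chr15:5143611-5143860, plus strand (Prkaa1), chr4:105109899-105110148, minus strand (Prkaa2), chr5:116024429-116024678, minus strand (Prkab1), and chr3:97657962-97658211, plus strand (Prkab2).
Prkaa1: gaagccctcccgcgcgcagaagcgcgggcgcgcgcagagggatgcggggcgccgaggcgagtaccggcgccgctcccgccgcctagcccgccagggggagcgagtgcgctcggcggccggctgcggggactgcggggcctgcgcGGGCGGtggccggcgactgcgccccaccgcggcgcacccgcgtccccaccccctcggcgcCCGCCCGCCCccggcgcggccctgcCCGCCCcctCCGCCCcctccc
Prkaa2: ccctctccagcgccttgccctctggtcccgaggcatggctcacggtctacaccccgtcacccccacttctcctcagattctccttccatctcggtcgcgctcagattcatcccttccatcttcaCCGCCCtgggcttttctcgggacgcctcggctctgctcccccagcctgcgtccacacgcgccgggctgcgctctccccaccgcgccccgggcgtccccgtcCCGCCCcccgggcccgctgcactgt
Prkab1: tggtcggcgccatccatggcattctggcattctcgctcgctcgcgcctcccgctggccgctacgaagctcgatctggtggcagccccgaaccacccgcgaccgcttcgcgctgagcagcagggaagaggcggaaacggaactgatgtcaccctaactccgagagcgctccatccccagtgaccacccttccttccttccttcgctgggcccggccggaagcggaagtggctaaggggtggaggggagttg
Prkab2: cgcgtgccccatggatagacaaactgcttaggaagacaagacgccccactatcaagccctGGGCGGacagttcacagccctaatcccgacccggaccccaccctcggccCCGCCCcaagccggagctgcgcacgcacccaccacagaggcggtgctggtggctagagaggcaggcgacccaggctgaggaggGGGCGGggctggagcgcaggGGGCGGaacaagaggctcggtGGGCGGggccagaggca
The Prkaa1 window holds 5 GC boxes, the Prkaa2 window 2, the Prkab1 window 0 and the Prkab2 window 5, where 32.7% of all 32851 RefSeq windows of this length hold at least 1. The windows have 45, 24, 24 and 18 CpG dinucleotides in the same order, against a median of 6 over all windows. None of these 4 windows holds an AP-1 site (TGANTCA, in 6.75% of all windows), a CRE (TGACGTCA, in 1.55%), a CCAAT box (CCAAT, in 33.8%), an E-box (CACGTG, in 6.02%) or a TATA box (TATAAA, in 12.4%) on either strand. These counts describe the letters of the windows.

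Prkaa2, the gene of the alpha 2 catalytic subunit, had the largest difference of the 10 members. Its level was 10.55, 10.55, 10.50, 10.31 and 10.60 in WT replicates 1 to 5, and 8.60, 9.26, 8.46, 7.91 and 7.85 in SCC replicates 1 to 5. Every tumour lay below every WT lung, with SCC replicate 2 nearest to WT and SCC replicates 4 and 5 farthest. Prkaa2 fell by 2.09 (SE 0.25, 95% interval -2.64 to -1.54, limma adjusted p 0.000118), which is 4.25-fold lower. The exact two-sided permutation p was 0.00794, the smallest that 5 against 5 arrays can give. The spread was also wider among tumours (SD 0.58, n = 5) than among WT lungs (SD 0.12, n = 5), a difference that was not tested.

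Prkaa1, the gene of the alpha 1 catalytic subunit, did not pass by its brightest probe. It read 11.85, 11.81, 11.77, 11.69 and 11.77 in WT and 11.72, 11.90, 11.61, 11.57 and 11.71 in SCC, so the groups overlapped. The difference was -0.08 (SE 0.09, 95% interval -0.27 to 0.12, limma adjusted p 0.487), an interval that leaves out a change of 2-fold in either direction. A dimmer probe of Prkaa1 read otherwise, with 8.40, 8.26, 8.01, 8.40 and 8.13 in WT and 9.12, 8.65, 9.39, 9.39 and 9.07 in SCC. By that probe Prkaa1 was higher in every tumour, by 0.88 (SE 0.15, limma adjusted p 0.00121). The 2 probes differed in their change by 0.96 (exact permutation p 0.00794, adjusted over 6 probe pairs 0.0238), and which of them reports the transcripts in use was not tested.

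The scaffold genes moved in opposite directions. Prkab1, for beta 1, was at 11.10, 10.97, 10.99, 10.90 and 11.04 in WT and at 12.01, 12.91, 11.85, 12.14 and 12.00 in SCC. Every tumour was above every WT lung, and SCC replicate 2 was the highest array. Prkab1 rose by 1.18 (SE 0.18, 95% interval 0.77 to 1.59, limma adjusted p 0.000623), or 2.27-fold. Without SCC replicate 2 the rise was 1.00 (limma adjusted p 9.32e-06).

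Prkab2, for beta 2, was at 9.87, 9.94, 9.85, 9.64 and 9.89 in WT and at 9.12, 8.93, 9.04, 9.10 and 9.01 in SCC. The groups did not overlap and the tumours lay close together (SD 0.08, n = 5). Prkab2 fell by 0.80 (SE 0.09, 95% interval -0.99 to -0.60, limma adjusted p 6.95e-05), leaving 57.6% of the WT level on the linear scale. This was the smallest adjusted p of the members, although the change was under 2-fold.

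The nucleotide-binding gamma subunits all had lower means in SCC, with 2 of 3 passing. Prkag2, for gamma 2, was at 9.16, 9.09, 9.22, 9.41 and 9.23 in WT and at 8.73, 8.70, 8.78, 8.80 and 8.22 in SCC. All tumours lay below all WT lungs, SCC replicate 5 the farthest. Prkag2 fell by 0.57 (SE 0.13, limma adjusted p 0.00441), and without SCC replicate 5 by 0.48 (limma adjusted p 0.0018).

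Prkag1, for gamma 1, the form found in most tissues, fell by 0.31 (SE 0.10, limma adjusted p 0.0277). Its arrays read 12.54, 12.74, 12.76, 12.76 and 12.70 in WT and 12.34, 12.65, 12.35, 12.42 and 12.22 in SCC. WT replicate 1 and SCC replicate 2 overlapped. A dimmer Prkag1 probe differed by -0.08 (SE 0.08, limma adjusted p 0.418). By its brightest probe Prkag1 also no longer passed when any of 6 of the 10 arrays was left out (WT replicates 2, 3, 4 or 5, SCC replicates 1 or 3). The limma adjusted p was then at most 0.0643 and the difference -0.31 to -0.29.

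Prkag3, for gamma 3, did not pass and turned on a single array. It was at 5.90, 6.26, 6.20, 6.35 and 6.04 in WT and at 4.16, 4.70, 4.43, 4.55 and 8.48 in SCC. The probe was well above background on all 5 WT arrays but only on SCC replicates 2 and 5. Of these, SCC replicate 5 was the highest of all 10 arrays and is the array with the unusual share of detected probes. With all arrays the difference was -0.89 (SE 0.74, 95% interval -2.54 to 0.76, limma adjusted p 0.338). With normexp it was -0.16 (limma adjusted p 0.718). Without SCC replicate 5 it was -1.79 (limma adjusted p 2.48e-05), a value set mostly by tumours whose signal was not well above background.

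Among the LKB1 partners the STRAD genes did not pass. Strada, for the STRAD alpha pseudokinase that holds LKB1 in its active form, was at 12.44, 12.21, 12.21, 12.20 and 12.41 in WT and at 12.08, 12.13, 11.95, 12.24 and 12.14 in SCC. SCC replicate 4 lay among the WT values, and the difference was -0.19 (SE 0.09, 95% interval -0.39 to 0.02, limma adjusted p 0.118). With normexp background correction it was -0.22 and passed narrowly (limma adjusted p 0.0477). Its dimmer probe differed by 0.11 (SE 0.19, limma adjusted p 0.651), and by 0.29 without SCC replicate 5 (limma adjusted p 0.0799).

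Stradb, for STRAD beta, was at 10.11, 9.85, 9.62, 9.69 and 9.93 in WT and at 9.94, 9.75, 9.93, 10.18 and 9.89 in SCC. The ranges were nearly the same, and the difference was 0.10 (SE 0.12, 95% interval -0.17 to 0.36, limma adjusted p 0.522). Its dimmer probe differed by -0.26 (SE 0.22, limma adjusted p 0.337), and by -0.062 without SCC replicate 5. For both STRAD genes the intervals of the brightest probe leave out a 2-fold change.

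Cab39, for the adaptor MO25 alpha, differed by 1 of its 3 probes. That probe, the brightest over all arrays, read 11.61, 11.87, 11.97, 11.89 and 11.97 in WT and 12.62, 11.91, 12.54, 12.68 and 12.58 in SCC. The other 4 tumours lay above all WT lungs, whereas SCC replicate 2 lay among the WT values. The difference was 0.60 (SE 0.16, 95% interval 0.26 to 0.95, limma adjusted p 0.00977), and 0.75 without SCC replicate 2 (limma adjusted p 0.000113). In WT alone another Cab39 probe was brighter, at 11.99 against 11.86, so the tumour values entered the choice of the probe that passed. For the other 9 members the WT arrays alone would have chosen the same probe. The other 2 Cab39 probes, the brighter in WT first, differed by 0.02 (limma adjusted p 0.908) and 0.08 (limma adjusted p 0.515). The first of these changed by 0.58 less than the brightest probe (exact permutation p 0.00794, adjusted over 6 probe pairs 0.0238), and the second by 0.52 less (0.0476, adjusted 0.0714).

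**Figure D2:**
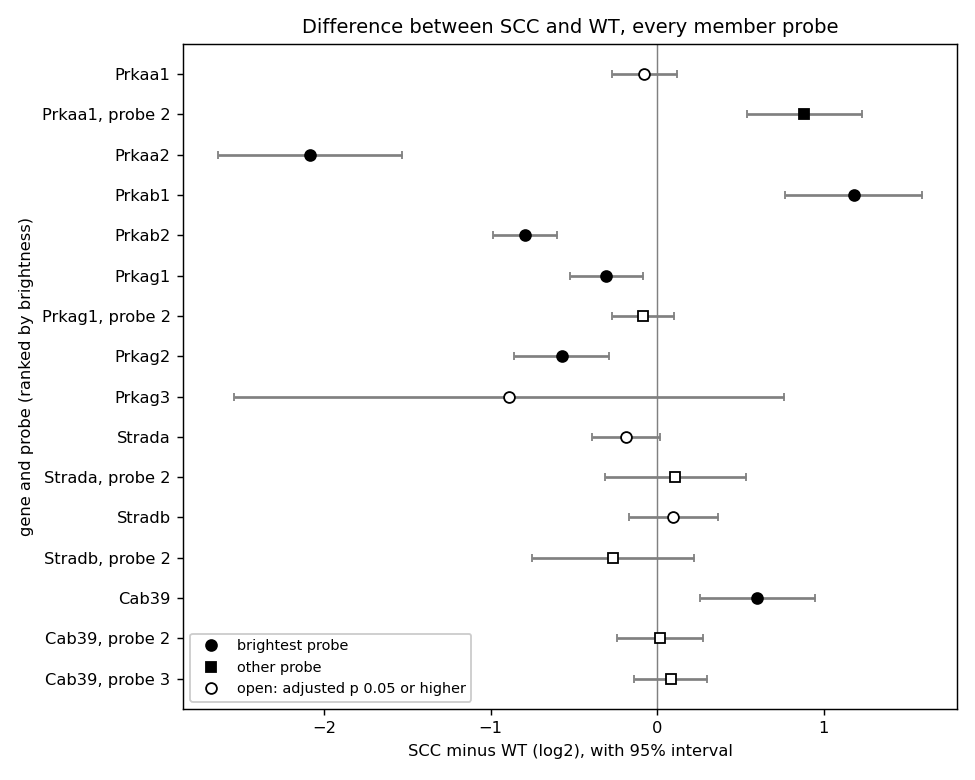
The difference SCC minus WT in log2 units is plotted for all 16 probes of the members with its 95% interval from the limma fit, circles for the brightest probe of a gene and squares for the others, filled where the adjusted p was below 0.05. Prkaa2 is at -2.09 and Prkab1 at 1.18, and the probes of Prkaa1 and of Cab39 part from one another.

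The pairs of paralogues were compared within each array, which asks whether one changed more than the other and takes no account of their absolute levels. Relative to the WT mean, Prkaa2 minus Prkaa1 lay at -0.11 to 0.11 on the WT arrays and at -2.58 to -1.37 on the SCC arrays. The difference was -2.01 (95% interval -2.47 to -1.55, exact permutation p 0.00794, adjusted over 5 pairs 0.0198). Prkab2 minus Prkab1 lay at -0.10 to 0.13 in WT and at -2.82 to -1.65 in SCC. Here the difference was -1.98 (95% interval -2.44 to -1.51, exact permutation p 0.00794, adjusted 0.0198), and -1.77 without SCC replicate 2 (adjusted permutation p 0.0198). The pairs thus shifted 4.03-fold and 3.94-fold away from Prkaa2 and Prkab2, through a fall of Prkaa2 beside a Prkaa1 that did not pass, and through a rise of Prkab1 together with a smaller fall of Prkab2. With the other Prkaa1 probe the first contrast was -2.97 (exact permutation p 0.00794, unadjusted).

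The other 3 pairs shifted less, and their groups overlapped. Prkag2 minus Prkag1 differed by -0.27 (exact permutation p 0.0476, adjusted 0.0476), Stradb minus Strada by 0.28 (exact permutation p 0.0238, adjusted 0.0397) and Cab39l minus Cab39 by -0.64 (exact permutation p 0.0476, adjusted 0.0476). Cab39l itself differed by -0.04 (SE 0.14, limma adjusted p 0.83), while its dimmer probe rose by 0.52 (limma adjusted p 0.00255). With each of the 10 arrays left out in turn these contrasts passed in 1, 2 and 1 cases, in the same order. With the other Prkag1 probe the Prkag2 contrast was -0.49 (exact permutation p 0.00794, unadjusted). The direction of the Stradb and Cab39l contrasts turned with other probes of the genes, to values between -0.37 and -0.01 for the first and up to 0.50 for the second.

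**Figure D3:**
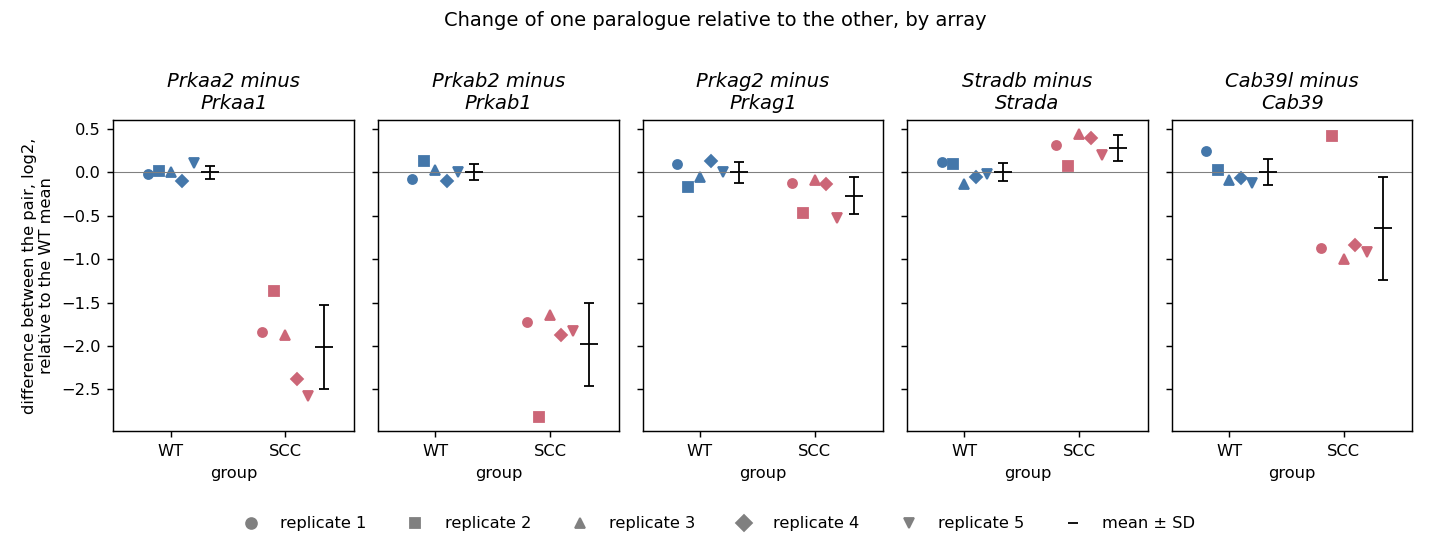
For each of the 5 pairs the difference between the paralogues on each array is plotted in log2 units relative to the WT mean, with a marker for each replicate and the group mean with its SD. The SCC arrays lie below -1.3 for Prkaa2 minus Prkaa1 and Prkab2 minus Prkab1, and SCC replicate 2 goes against the other tumours for Cab39l minus Cab39.

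Slides and groups were only partly crossed. WT replicates 1 to 4 shared slide 1, WT replicate 5 and SCC replicates 1 to 3 shared slide 2, and SCC replicates 4 and 5 were on slide 3. Within slide 2 the difference was -1.83 for Prkaa2, -0.86 for Prkab2 and 1.22 for Prkab1, resting on a single WT array. With slide as a fixed block, which uses this contrast alone, Prkaa2 (limma adjusted p 0.0115) and Prkab2 (limma adjusted p 0.0215) passed. Prkab1 (limma adjusted p 0.068), Prkag2 (-0.49, limma adjusted p 0.211), Prkag1 (-0.26, limma adjusted p 0.415) and Cab39 (0.38, limma adjusted p 0.415) did not. The Prkaa2 and Prkab2 contrasts were then -1.80 and -2.07 (limma adjusted p over 5 pairs 0.000241 and 0.00273).

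Markers of other cell types moved along with Prkaa2, and the counts below stand beside 28.4% of all genes lower and 25.5% higher in SCC. Of the endothelial list, 8 of 8 genes were lower in SCC, and its mean level was 13.51 to 13.70 in WT and 11.28 to 12.23 in SCC, where SCC replicate 2 was again the highest tumour. Of the cardiac muscle list, 7 of 8 genes were lower, at 9.92 to 13.49 in WT and 7.96 to 9.82 in SCC. The lowest and highest cardiac levels in WT were on WT replicates 1 and 2, and Prkaa2 read 10.55 on both. Of the adipocyte list, 5 of the 6 tested genes were lower, at 6.76 to 8.92 in WT and 5.31 to 6.25 in SCC. Lep was well above background on none of the WT arrays. The skeletal muscle list, the tissue for which Prkaa2, Prkab2 and Prkag3 are best known, had 1 of 7 tested genes lower (Myh4) and 1 higher (Tnni2), with levels of 6.86 to 7.97 in WT and 6.05 to 7.72 in SCC. Of the 2 Myh1 probes, the brighter was well above background on 0 WT arrays and the other on 3. The Myh4 probe that passed was lowest in WT on WT replicate 1 (8.51) and highest on WT replicate 2 (12.80), as the cardiac list was. The other Myh4 probe was well above background on 0 WT arrays and was not tested. A dimmer probe of Myh2 (-1.69, limma adjusted p 0.00552) and one of Tnnt3 (-1.04, limma adjusted p 0.0411) also passed as lower. The part of any of these cells in the Prkaa2 difference was not tested.

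**Figure D4:**
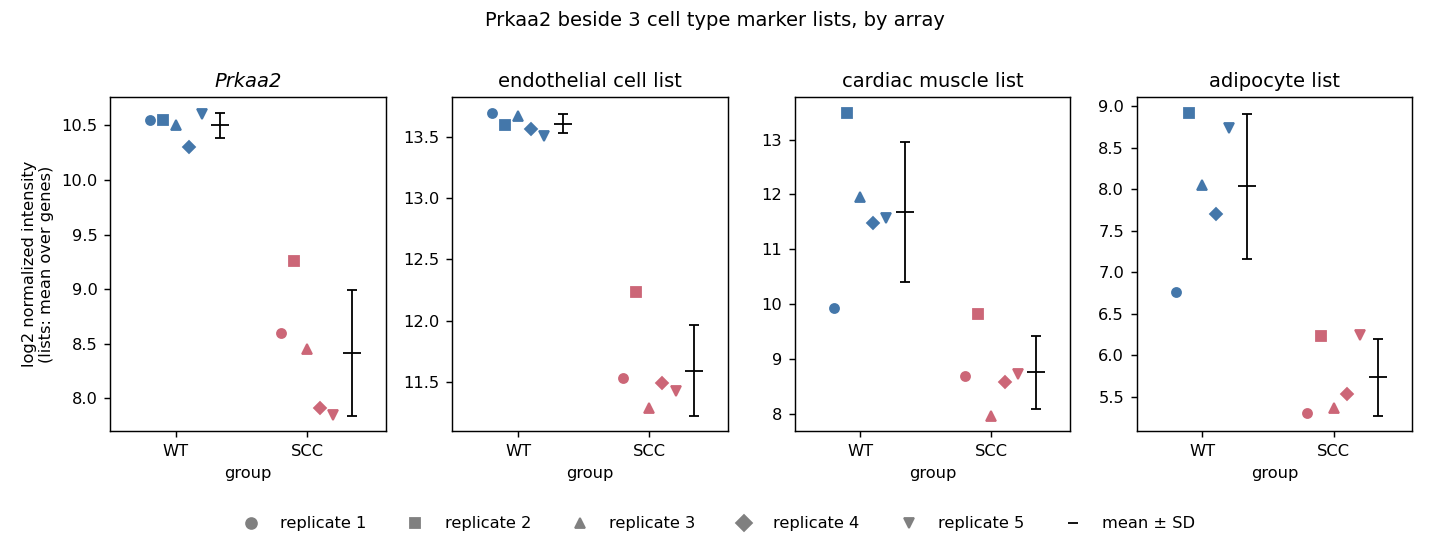
The level of Prkaa2 and the mean level of the endothelial, cardiac muscle and adipocyte marker lists are plotted in log2 units for the 5 WT and 5 SCC arrays, with a marker for each replicate and the group mean with its SD. The level of each is lower in every SCC array than in any WT array.

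Alveolar type 1 markers were lower for 4 of 5 genes and higher for the other (Aqp5), club cell markers were lower for 4 of 5 and ciliated cell markers for 1 of 6. Markers of proliferation were higher for 5 of 6 genes and of neutrophils for 4 of 6. Their part in the differences of the members was not tested either. The genes whose pattern over the 10 arrays was most like that of Prkaa2, by Pearson r among 15511 other genes, were Prkd1 (a protein kinase D, r 0.993), Rab33b (a small GTPase, 0.992), Col6a2 (a collagen VI chain, 0.988), Garnl3 (0.988) and Ets1 (a transcription factor of endothelial cells and lymphocytes, 0.988). These r values describe 10 arrays that fall into 2 groups and so mostly restate the difference between them. Prkd1, for example, was at 10.66 to 10.86 in WT and at 8.52 to 9.68 in SCC, again with SCC replicate 2 highest among the tumours.

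A list of 19 upstream and regulatory genes of AMPK was read beside the members. Of these, 10 were higher (25.5% of all genes), 6 lower (28.4%) and 3 did not pass, with a median difference of 0.39 against -0.04 over all genes. Leaving out single arrays gave 11 to 15 passing genes in place of 16, and slide as a fixed block gave 4 (2 higher, 2 lower). The kinases known to phosphorylate AMPK in place of LKB1 went both ways. Camkk1 fell by 0.65 (limma adjusted p 0.00196) and Camkk2 by 0.75 (limma adjusted p 0.00147), with no overlap between the groups, while Map3k7, for TAK1, rose by 0.43 (limma adjusted p 0.0499) and overlapped. The stress-induced Sestrins were unequal too, since Sesn2 rose by 1.28 (SE 0.12, 2.43-fold), at 10.09 to 10.24 in WT and 11.23 to 11.80 in SCC, Sesn3 rose by 0.46 (limma adjusted p 0.0431) with overlap, and Sesn1 fell by 0.97. Once slide was fitted as a fixed block, Camkk1 (-0.32, limma adjusted p 0.349), Camkk2 (-0.44, limma adjusted p 0.237) Map3k7 (0.53, limma adjusted p 0.317) and Sesn3 (0.59, limma adjusted p 0.249) did not pass, whereas Sesn1 and Sesn2 did.

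The called genes of that list were 5 higher (11.6% of all genes) and 2 lower (13.4%). Cblc, a ubiquitin ligase of the Cbl family, had the largest difference, 2.65 (SE 0.10, 6.28-fold), at 8.16 to 8.39 in WT and 10.72 to 11.11 in SCC, and its dimmer probe differed by 2.75. Fnip2, a folliculin-interacting protein that binds AMPK, rose by 1.15 (SE 0.32) with 1 tumour, SCC replicate 2, below all WT lungs, and by 1.5 without that array. The lipid droplet gene Cidea rose by 1.91 (SE 0.38), or by 2.26 without SCC replicate 2, and its relative Cideb by 1.08 (SE 0.33), both with overlap. Lower were Ppm1e, a phosphatase that acts on AMPK, by 1.52 (SE 0.51, limma adjusted p 0.0336), and Pja2, a ubiquitin ligase, by 1.13 (SE 0.15). A dimmer Pja2 probe differed by -0.95 (limma adjusted p 0.00339), under 2-fold and with overlap. The fall of Ppm1e was 1.03 without SCC replicate 5, and it no longer passed without WT replicate 1, 2, 3 or 5 (limma adjusted p 0.0613 to 0.072). Cideb was 0.84, under 2-fold, without SCC replicate 2, and no longer passed without WT replicate 3 (0.99, limma adjusted p 0.0526) or 5 (0.99, limma adjusted p 0.0514). With normexp background correction Ppm1e differed by -0.58 and Cideb by 0.56, both still passing but under 2-fold, and with 75th percentile scaling Ppm1e differed by -1.02. With slide as a fixed block Fnip2 (0.97), Cidea (0.82), Cideb (1.51) and Ppm1e (-1.31) did not pass (limma adjusted p 0.162 to 0.4).

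A second list held 25 AMPK substrates and output genes. Of these, 5 were higher, 6 lower and 14 did not pass, beside 25.5% higher and 28.4% lower of all genes, so that the shares were near or below the background. The median difference was -0.02. Of the 4 called genes (24.9% of all genes were called), Slc2a1, for the glucose transporter GLUT1, rose by 2.33 (SE 0.42, 5.02-fold). It was at 11.58 to 11.72 in WT and at 12.15 to 14.53 in SCC, with SCC replicate 2 lowest, and without that array the rise was 2.79. Gfpt1, the first enzyme of the hexosamine pathway, rose by 1.28 (SE 0.16), or by 1.14 without SCC replicate 2, where it was highest, and its other probes by 2.59 and 2.23.

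Acacb, the acetyl-CoA carboxylase that restrains fatty acid oxidation and is a direct AMPK substrate, fell by 1.71 (SE 0.26, 3.27-fold), at 11.01 to 11.65 in WT and 9.14 to 10.61 in SCC. Its dimmer probe went the other way, at 1.21 (SE 0.59, limma adjusted p 0.114), but was well above background on only 2 of the 5 WT and 4 of the 5 SCC arrays, and was not tested once SCC replicate 2 or 5 was left out. Pfkfb3, which makes the activator of phosphofructokinase, fell by 1.42 (SE 0.12), and its dimmer probes differed by -0.43 (limma adjusted p 0.265, and -0.70 with limma adjusted p 0.0425 without SCC replicate 5) and -0.74 (limma adjusted p 0.0065). With slide as a fixed block Slc2a1 (2.04, limma adjusted p 0.132) and Acacb (-1.39, limma adjusted p 0.108) did not pass. Acaca, Ppargc1a, Ulk1 and Cpt1a did not pass by their brightest probes. For Acaca, 1 of 3 dimmer probes passed (0.67, limma adjusted p 0.0427, and 0.46 without SCC replicate 5). The dimmer probe passed for Ppargc1a (1.06, limma adjusted p 0.0233, and 0.73 without SCC replicate 2) and Ulk1 (0.31, limma adjusted p 0.0274). Without SCC replicate 2 both Cpt1a probes were lower, at -0.63 (limma adjusted p 0.00301) and -0.57 (limma adjusted p 0.00808). With slide as a fixed block, none of the dimmer probes of Acaca, Ppargc1a and Ulk1 passed. All values are transcript levels, and none measures the kinase activity of AMPK.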

How the data were processed

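Total RNA of 5 WT lungs and 5 SCC tumours was labelled with Cy3 and hybridised by the authors to Agilent whole mouse genome arrays, 1 sample an array. The scanner files hold spot intensity on a linear scale, background-subtracted by the authors with Agilent Feature Extraction 12 at its one-color defaults. A deposited table of log2 values, quantile-normalized per the study's methods, followed the scanner values closely (r of at least 0.9999 on each array) and had a median of 7.2 in every column. It served as an alternative and to choose the brightest probe of a gene.

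Here log2 of the processed intensity was averaged over the spots of a probe and quantile-normalized between arrays, with control spots and outlier flags left out. Probes well above background on at least 4 arrays of a group were tested, 30374 in all. The comparison of SCC with WT was a two-sided moderated linear model (lmFit, then eBayes) of limma 3.58.1 under R 4.3.3, with Benjamini-Hochberg adjustment over all tested probes. The contrasts of paralogues and of probes used exact two-sided permutation tests over the 252 splits of the arrays into 5 and 5. The fit was tested on simulated data. Accessions of the probe annotation were turned into symbols with a RefSeq gene table, which named 28223 of the 41174 probes. All 10 members have a RefSeq promoter entry.

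The labels do not say that replicates of a group come from separate animals. The study's methods state, for its experiments in general, that sample sizes count biological replicates. The p-values measure the spread between these samples. The number of arrays limits the precision. The replicate numbers of the titles were not used to pair the samples in the analysis reported. Deviations of WT and SCC arrays of the same number correlated at -0.10 to 0.01, which cannot exclude a pairing. Alternatives were normexp background correction, scaling to the 75th percentile, the deposited table, other filters on dim probes, slide as a block, the replicate number as a block, array weights, the methods' t-test form, other probes, and leaving out arrays. The members, lists and tests were chosen with earlier results of these data known. Named were all members, called genes of both AMPK lists up to 8 each, and the 5 genes most like Prkaa2. Other genes of the lists were named after their values were seen, for their role. Marker lists not described in the text showed the following counts of tested genes lower and higher in SCC: smooth muscle 4 and 0 of 6, fibroblast 3 and 2 of 6, alveolar type 2 cell 4 and 0 of 6, macrophage 2 and 3 of 6, T cell 3 and 0 of 5, B cell 5 and 0 of 5.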

Additional observations from a re-analysis of the deposited data

Results flagged for a closer look

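In 12 of 64 groups of 5 arrays examined, a single array lay far from the other 4, by a gap to its nearest neighbour of more than 0.71 of the range of the group. Chance gives about 1 in 20 groups. Among the members, SCC replicate 2 was highest for Prkab1 (12.91 against 11.85 to 12.14 on the other tumours, a gap of 0.726 of the range) and lowest for Cab39 (11.91 against 12.54 to 12.68, 0.823). SCC replicate 5 was lowest for Prkag2 (8.22 against 8.70 to 8.80, 0.823) and highest for Prkag3 (8.48 against 4.16 to 4.70, 0.875). WT replicate 1 was lowest for Prkag1 (12.54 against 12.70 to 12.76, 0.744). Of the paralogue contrasts, SCC replicate 2 was lowest for Prkab2 minus Prkab1 (-2.82 against -1.88 to -1.65, 0.803) and highest for Cab39l minus Cab39 (0.41 against -0.99 to -0.83, 0.886).

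In the AMPK lists, SCC replicate 2 was lowest for Slc2a1 (12.15 against 14.36 to 14.53, 0.929), Cidea (10.91 against 12.47 to 12.70, 0.873) and Fnip2 (10.11 against 11.71 to 11.92, 0.883). It was highest for Gfpt1 by the brightest probe (14.80 against 14.03 to 14.18, 0.815), but the lowest tumour by both other Gfpt1 probes. SCC replicate 5 was lowest for Ppm1e (3.38 against 5.97 to 6.19, 0.924). The cause was not tested for any of these arrays.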

How the results depend on the processing

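Prkaa2 and Prkab2 stayed lower and passed under every alternative run, as did the contrasts of Prkaa2 with Prkaa1 and of Prkab2 with Prkab1. Slide as a fixed block, which leaves a single WT array to compare, cut the members that passed to 2 (0 higher, 2 lower) and those called to 1. It left 4 upstream genes passing (2 higher, 2 lower) with 3 called, and 3 substrate genes (1 higher, 2 lower) with 2 called. Of all tested probes it called 2989 (1402 higher, 1587 lower), against 6954 (3014 higher, 3940 lower) in the analysis reported. With 75th percentile scaling more probes were called higher than lower (3504 and 3080). Normexp called 3969 (1909 higher, 2060 lower), and the adjusted p alone, with no fold required, 14878.

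The contrast of Prkag2 with Prkag1 did not pass with normexp (-0.13), 75th percentile scaling (-0.19), the slide block (-0.23) or without SCC replicates 2 and 5 (-0.13), and ran from -0.31 to -0.22 when single arrays were left out. Stradb minus Strada did not pass under the slide block (0.30), was 0.24 to 0.34 without single arrays, and with other probes it turned to -0.013, -0.077 and -0.37. Cab39l minus Cab39 did not pass with normexp (-0.59), 75th percentile scaling (-0.65) or the slide block (-0.36), and was -0.91 to -0.55 without single arrays. With other probes it was -0.057, -0.12 and -0.085, and turned to 0.50 and 0.44. Among the members and called list genes, those reversed were Prkaa1 (0.88), Strada (0.11), Stradb (-0.26) and Acacb (1.21) by other probes, and Stradb under the slide block (-0.055). Of these, the Acacb probe was well above background on 2 of 5 WT arrays, and the Stradb probe moved to -0.062 without SCC replicate 5. The titles do not say whether samples of the same number belong together. With the replicate number as a block, 5 members passed and 6571 probes were called. Prkag1 (-0.31, limma adjusted p 0.0687) and Ppm1e (-1.52, limma adjusted p 0.0683) no longer passed. This block changed neither the pass nor the call of any other member or called list gene. Map3k7, Ppm1a, Axin1, Sesn3, Crtc2 and Pfkfb2 also no longer passed (limma adjusted p 0.0556 to 0.134). Under this block the contrasts of Prkag2 (-0.27), Stradb (0.28) and Cab39l (-0.64) did not pass either. The cause of these losses was not tested. Scaling to the 75th percentile moved the median of all tested probes from -0.09 to 0.03, and no member changed direction with it. Dim probes limit what can be said of Prkag3, which was not well above background on 3 tumour arrays.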
